A study of Homo sapiens with 10 samples.

Results

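The genes described here are 49 genes of DNA replication and mitosis, taken by symbol from the 10 deposited gene tables of 58381 rows each. All 49 symbols were found in all 10 tables, and all 49 passed the filter on low counts. They form 2 classes. The S-phase class has 21 genes that prepare or carry out DNA replication, and the G2/M class has 28 genes that act between the end of replication and cell division. The RNA came from GIST-T1, an established human cell line from a metastatic gastrointestinal stromal tumour. The groups were the derivative lines InsE, InsF, InsG and InsH, in which a CTCF insulator was disrupted, and the control line, given as wild type, with 2 libraries each. CTCF is a DNA-binding protein that separates neighbouring chromosome domains. Which site was disrupted in which line, whether a line is 1 clone and whether its libraries are separate cultures are not given in the labels. The p-values therefore measure library-to-library spread that may be technical.

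A cell that commits to division first loads the MCM helicase onto replication origins, with CDC6 and CDT1 as loaders, and then copies its DNA with PCNA-clamped polymerases. E2F transcription factors switch the S-phase genes on, and cyclin E with CDK2 pushes the cell past the G1/S boundary. The G2/M genes are switched on later by B-MYB (MYBL2) and FOXM1 together with the MuvB core, peak as CDK1 and cyclin B drive mitosis, and are kept low in resting cells by the DREAM complex. In bulk RNA, fewer cells in a phase and less RNA per cell cannot be told apart.

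The expected counts of a library summed to 9.4 to 42.5 M (mega), and in every group the library numbered 2 was the shallower. The totals were 9.4 to 20.1 M in libraries numbered 2 and 22.9 to 42.5 M in those numbered 1. No member had fewer than 199 counts in any library (CDC25C, the least abundant). The libraries of a line differed more than the control pair did, with a mean chi-square per gene of 6.59 to 7.69 within the lines and 1.39 within the control. KIT and ANO1, defining markers of gastrointestinal stromal tumour cells, averaged 434 and 328 TPM (abundance per transcript length, scaled to a fixed library total) in the lines and 720 and 514 TPM in the control. Of the other tumour markers looked at, ETV1, PRKCQ and CD34 were also lower on average in the lines. Their means were 138, 11.3 and 1500 TPM in the lines, against 152, 14.85 and 1708 TPM in the control. PDGFRA went the other way, at 32.6 TPM in the lines against 29.1 TPM in the control. Its level was above the control in InsF, InsG and InsH and below the control in InsE. The leukocyte marker PTPRC, the epithelial marker KRT20 and the endothelial marker PECAM1 were at or near 0 in all libraries.

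Averaged over the 4 lines and set against the control, the S-phase genes that changed all fell, while the G2/M genes that changed went both ways. Of the 49 members, 14 passed an edgeR adjusted p of 0.05, which is 28.6% of the members beside 27.6% of all 15554 genes tested. This fit took the libraries of the lines as independent of each other. Same-numbered libraries of the lines deviated together (correlations of 0.762 to 0.808), so the SE and p-values of the mean may be too small. In the S-phase class 9 of 21 fell and 0 rose, where 14.5% of all genes fell and 13.1% rose. At an unadjusted p under 0.05, 12 S-phase genes were lower and 0 higher, and DESeq2 called 7 lower and 0 higher. In the G2/M class 3 of 28 rose and 2 fell. The split of calls moved with the scaling. Library sizes alone, which shifted the median of all genes to 0.06, gave 6 calls higher and 6 lower, beside 29% of all genes called. Limma run on log2(TPM + 1) gave 4 higher and 2 lower, beside 13.8% of all genes. Of the S-phase genes 5 were lower with library sizes alone and 1, RRM2, with limma, and none was higher in either of these fits, with DESeq2, without a filter or with any 1 library left out. The median log2 change was -0.13 over the S-phase genes and 0.03 over the G2/M genes, beside 0.01 over all genes. The count rested on both control libraries. It was 3 when control replicate 1 was left out, 3 when control replicate 2 was left out and 3 when both were summed into 1 library, where 9.39%, 10.4% and 10.4% of all genes were called. The 3 genes that passed in each of these fits, and with any other library left out, were RRM2, CDC25A and MKI67. Limma on log2(TPM + 1) did not call CDC25A, whose estimate there was -0.20 (adjusted p = 0.115).

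**Figure D1:**
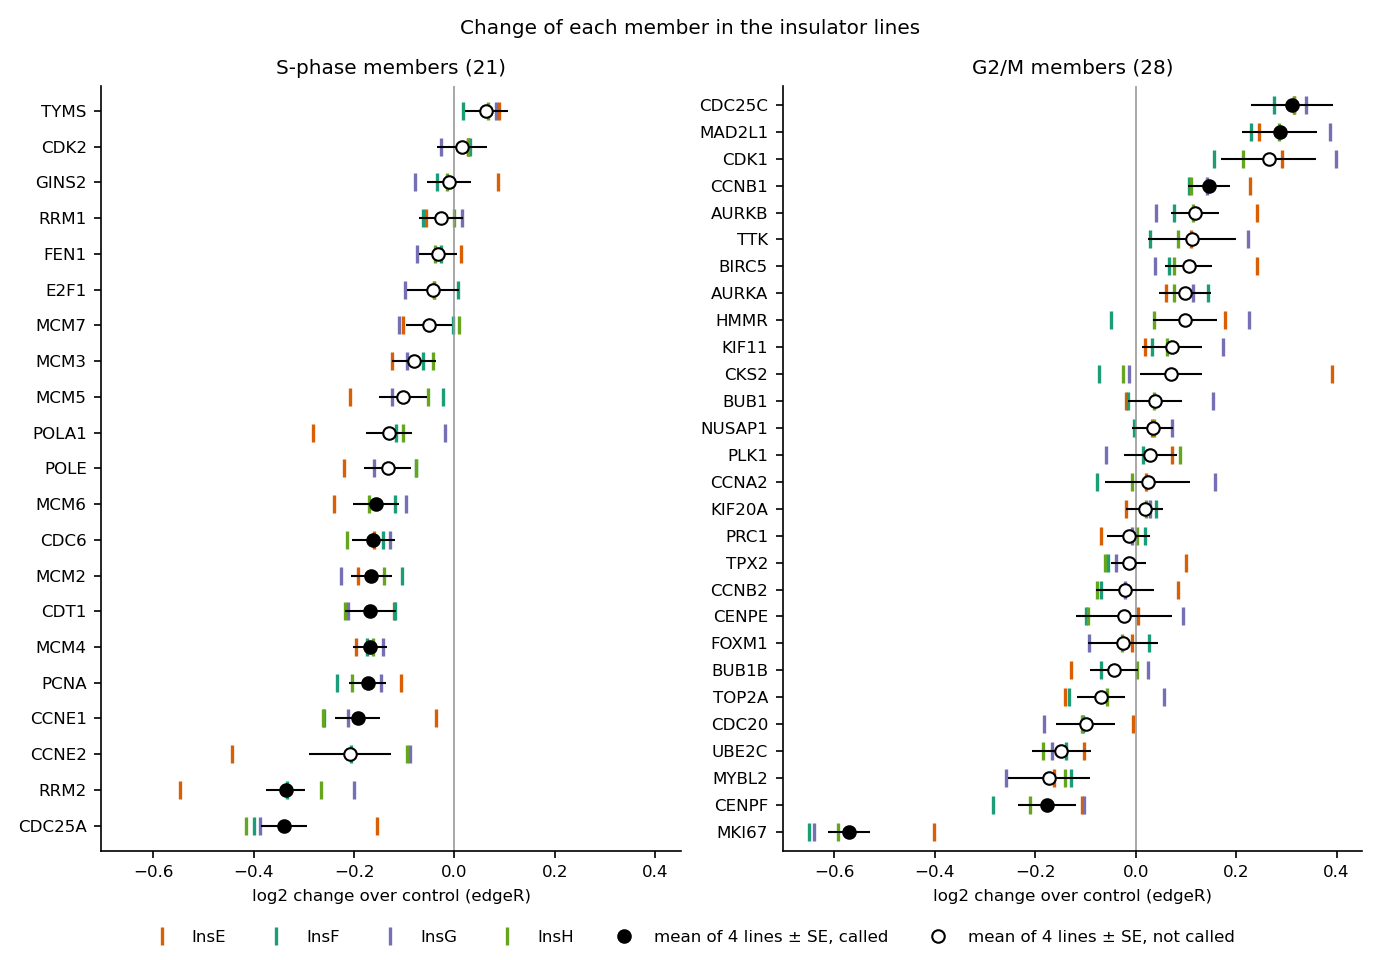
Log2 change over control of each of the 49 members, with the edgeR estimate for the mean of the 4 lines and its SE (circles, filled where the adjusted p was under 0.05) and the estimate of each line (coloured ticks). The S-phase genes lie mostly left of 0, down to -0.34 for CDC25A and RRM2, and the G2/M genes spread to both sides, between -0.57 for MKI67 and 0.31 for CDC25C.

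Of the 9 genes that license origins or form the helicase, 5 fell in the mean of the lines (MCM2, MCM4, MCM6, CDC6 and CDT1) and 4 did not pass the test (MCM3, MCM5, MCM7 and GINS2). Levels are given as CPM, counts scaled to the library total after TMM scaling. MCM4, a subunit of the helicase ring, had 466 and 461 CPM in InsE, 477 and 463 CPM in InsF, 487 and 475 CPM in InsG and 472 and 477 CPM in InsH, against 533 and 529 in the control. MCM2, another subunit, had 365 and 387 CPM in InsE, 388 and 411 CPM in InsF, 366 and 368 CPM in InsG and 379 and 400 CPM in InsH, against 429 and 430 in the control. CDT1, which brings the helicase to origins, had 71.4 and 74.5 CPM in InsE, 72.4 and 73.3 CPM in InsF, 64.7 and 72.7 CPM in InsG and 67.2 and 68.8 CPM in InsH, against 78.8 and 79.4 in the control. For these 3 genes all 8 line libraries lay below both control libraries. MCM4 fell by 0.17 ± 0.034 (log2 ± SE, edgeR adjusted p = 0.00538), CDT1 by 0.17 ± 0.051 (0.0358) and MCM2 by 0.17 ± 0.041 (0.0149). In the mean, the calls of MCM2, MCM6, CDC6 and CDT1 were lost with library sizes alone, and those of CDC6 and CDT1 also with DESeq2. Limma on log2(TPM + 1) called none of the 5 genes in the mean. MCM7, the helicase subunit with the highest level in TPM, overlapped the control at 562 to 654 CPM in the lines against 627 and 629 CPM in the control, and its estimate was -0.05 ± 0.046. MCM4 was the helicase gene called in each of the 4 lines, with a log2 change of -0.20 for InsE, -0.17 for InsF, -0.14 for InsG and -0.16 for InsH. In each line its call was lost with either control library left out. The InsG call (edgeR adjusted p = 0.0439) was lost whichever library was left out, with DESeq2, with library sizes alone and without a filter. The InsF and InsH calls were also lost without either library of the line and with library sizes alone. That of InsE was also lost without InsE replicate 2. Limma on log2(TPM + 1) called MCM4 in none of the lines (adjusted p = 0.421 to 0.558).

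Among the 7 genes of the replication fork and of nucleotide supply, RRM2 and PCNA fell and FEN1, POLA1, POLE, RRM1 and TYMS did not pass. RRM2, the cell cycle-regulated small subunit of ribonucleotide reductase (chromosome 2, 10120698 to 10131419, plus strand, hg38), had 441 and 422 CPM in InsE, 506 and 494 CPM in InsF, 563 and 535 CPM in InsG and 539 and 510 CPM in InsH, against 626 and 635 in the control. All 8 line libraries lay below both control libraries, and InsE was the lowest line. RRM2 fell by 0.34 ± 0.039 in the mean of the lines (edgeR adjusted p = 0.000233). PCNA, the sliding clamp of the replicative polymerases, had 326 and 324 CPM in InsE, 291 and 305 CPM in InsF, 323 and 310 CPM in InsG and 306 and 302 CPM in InsH, against 351 and 349 in the control. It too lay below the control in all 8 libraries and fell by 0.17 ± 0.037 (0.00754). The large reductase subunit RRM1 had an estimate of -0.03 ± 0.044. Thymidylate synthase, TYMS, had the highest estimate of the class at 0.06 ± 0.044 and did not pass.

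Of the 5 genes of the G1/S switch, CDC25A and CCNE1 fell and E2F1, CDK2 and CCNE2 did not pass in the mean of the lines. CDC25A, the phosphatase that activates cyclin E-CDK2 (chromosome 3, 48157146 to 48188402, minus strand, hg38), had 64.9 and 64.7 CPM in InsE, 54.9 and 54.5 CPM in InsF, 55.1 and 55.2 CPM in InsG and 51.8 and 56.7 CPM in InsH, against 71.9 and 72.4 in the control. All lines lay below the control, with InsE nearest to it. CDC25A fell by 0.34 ± 0.046 (edgeR adjusted p = 0.000648). CCNE1, cyclin E1, had 162 and 164 CPM in InsE, 136 and 144 CPM in InsF, 141 and 148 CPM in InsG and 134 and 145 CPM in InsH, against 167 and 168 in the control, and fell by 0.19 ± 0.045 (0.0112). Its partner kinase CDK2 had an estimate of 0.01 ± 0.049. E2F1, the activator of the class, had an estimate of -0.04 ± 0.052.

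Promoter windows of 250 bases before to 50 bases after the start were available from RefSeq (GRCh38.p14) for 39 of the 49 members, in 48 windows, since some genes have several starts. They were searched on both strands for an E2F-type site (TTCCCGC or TTGGCGC), for the cell cycle genes homology region or CHR (TTTGAA) and for the CCAAT box (CCAAT). An E2F-type site stood in 15 of the 21 S-phase windows (71.4%) and in 5 of the 27 G2/M windows (18.5%), beside 9.23% of all 35116 windows of the table. A CHR stood in 1 of the 21 S-phase windows (4.76%) and in 17 of the 27 G2/M windows (63%), beside 15.2% of all. CCAAT boxes did not separate the classes, at 76.2% and 81.5% beside 34.6% of all. A CHR together with a CCAAT box was found in 4.76% of S-phase windows, 59.3% of G2/M windows and 5.9% of all. A match is a run of letters and not a measured binding site, and windows of 1 gene can share bases. The promoters of CDC25A (chr3:48188368-48188667, minus strand) and RRM2 (chr2:10122318-10122617, plus strand), the S-phase genes with the largest falls, are shown 5′ to 3′ along the gene with E2F-type and CCAAT matches in capitals. In CDC25A a forward and a reverse E2F-type match overlap in 1 run. RRM2 has another window, further downstream, that holds no E2F-type match. Both RRM2 windows lie inside the annotated gene, downstream of its start.
CDC25A: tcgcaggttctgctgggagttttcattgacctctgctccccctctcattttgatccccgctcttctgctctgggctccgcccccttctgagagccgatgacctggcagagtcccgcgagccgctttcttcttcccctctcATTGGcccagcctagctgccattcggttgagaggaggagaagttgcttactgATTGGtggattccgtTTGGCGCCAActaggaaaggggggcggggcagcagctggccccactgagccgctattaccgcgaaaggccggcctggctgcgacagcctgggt
RRM2: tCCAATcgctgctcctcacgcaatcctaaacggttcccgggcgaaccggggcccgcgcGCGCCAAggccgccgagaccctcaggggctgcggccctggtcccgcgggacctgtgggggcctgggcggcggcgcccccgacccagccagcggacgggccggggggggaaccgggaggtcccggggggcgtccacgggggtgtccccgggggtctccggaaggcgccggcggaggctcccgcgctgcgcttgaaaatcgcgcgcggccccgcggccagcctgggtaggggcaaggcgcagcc

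Of the 8 cyclins, kinase and regulators of the G2/M class, CDC25C and CCNB1 rose in the mean of the lines and CCNA2, CCNB2, CDK1, CKS2, FOXM1 and MYBL2 did not pass. CDC25C, a phosphatase that activates cyclin B-CDK1 (chromosome 5, 138285265 to 138338355, minus strand, hg38), had 21.1 and 21.1 CPM in InsE, 20.99 and 19.91 CPM in InsF, 22.9 and 19.2 CPM in InsG and 22.5 and 19.3 CPM in InsH, against 17.3 and 16.5 in the control. CCNB1, cyclin B1, had 338 and 322 CPM in InsE, 309 and 297 CPM in InsF, 316 and 306 CPM in InsG and 311 and 297 CPM in InsH, against 278 and 286 in the control. Both genes were above the control in all 8 line libraries. CDC25C rose by 0.31 ± 0.082 (edgeR adjusted p = 0.0192) and CCNB1 by 0.15 ± 0.042 (0.0267). CDK1, the kinase of mitotic entry, was also above both control libraries in all 8 line libraries, at 233 to 318 CPM against 225 and 222 CPM. Its estimate of 0.26 ± 0.095 did not pass (0.0643), but it passed with DESeq2 (0.26, 0.0168), with library sizes alone (0.32, 0.0331) and without a filter (0.25, 7.04e-05). CDK1 did not pass with DESeq2 size factors in edgeR, with limma on log2(TPM + 1) or without either control library. Its libraries numbered 1 and 2 differed widely within each line. CDC25C and CCNB1 lost their calls without either control library. The call of CDC25C was also lost with DESeq2 and with limma on log2(TPM + 1). That of CCNB1 was also lost without a filter and without replicate 1 of InsE, InsF, InsG or InsH.

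Of the 7 mitotic kinases and checkpoint genes, MAD2L1 rose and PLK1, AURKA, AURKB, BUB1, BUB1B and TTK did not pass in the mean of the lines. MAD2L1, the spindle checkpoint protein MAD2 (chromosome 4, 120055608 to 120067074, minus strand, hg38), had 87.6 and 77.4 CPM in InsE, 86.7 and 77.0 CPM in InsF, 97.0 and 85.2 CPM in InsG and 89.4 and 80.7 CPM in InsH, against 69.2 and 70.8 in the control. All 8 line libraries were above the control, and MAD2L1 rose by 0.29 ± 0.074 (edgeR adjusted p = 0.0179), a call lost without either control library. Neither gene of the anaphase-promoting complex pathway passed. UBE2C, its ubiquitin-conjugating enzyme, had 69.3 to 79.5 CPM in the lines against 84.8 and 81.1 CPM in the control, below it in all 8 libraries, with an estimate of -0.15 ± 0.059 (0.09). CDC20, its mitotic activator, had an estimate of -0.10 ± 0.058.

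Of the 9 genes of kinetochore, spindle and cytokinesis, CENPF fell and CENPE, KIF11, KIF20A, TPX2, PRC1, NUSAP1, HMMR and BIRC5 did not pass in the mean of the lines. CENPF, a large kinetochore protein of G2 and mitosis, had 405 and 378 CPM in InsE, 365 and 327 CPM in InsF, 411 and 374 CPM in InsG and 381 and 348 CPM in InsH, against 418 and 426 in the control. It lay below the control in all 8 libraries and fell by 0.18 ± 0.057 (edgeR adjusted p = 0.0445). In TPM its direction turned, with 160 and 139 TPM in InsE, 131 and 98.1 TPM in InsF, 129 and 112 TPM in InsG and 140 and 111 TPM in InsH, against 121 and 125 in the control, and limma on log2(TPM + 1) gave 0.04 (adjusted p = 0.872). The effective length that RSEM assigned to CENPF, an average over its transcripts weighted by their estimated abundance, was 3798 and 3876 bases in InsE, 4417 and 5025 bases in InsF, 5098 and 5097 bases in InsG and 4356 and 4734 bases in InsH, against 5081 and 5013 bases in the control. TPM divides by this length and CPM does not.

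MKI67 had the largest change of all members, and TOP2A, the other gene of the chromosome structure group, did not pass. MKI67, which encodes the Ki-67 protein that coats mitotic chromosomes (chromosome 10, 128096659 to 128126385, minus strand, hg38), had 847 and 904 CPM in InsE, 721 and 753 CPM in InsF, 718 and 767 CPM in InsG and 746 and 789 CPM in InsH, against 1162 and 1152 in the control. The lines lay far below the control, with InsE nearest to it. MKI67 fell by 0.57 ± 0.042 in the mean of the lines (edgeR adjusted p = 1.46e-05), and by 0.40 for InsE, 0.65 for InsF, 0.64 for InsG and 0.59 for InsH. Its direction went against that of CDC25C, CCNB1 and MAD2L1, which belong to the same class. On the TPM scale MKI67 had 123 and 156 TPM in InsE, 102 and 113 TPM in InsF, 102 and 120 TPM in InsG and 105 and 116 TPM in InsH, against 167 and 163 in the control. TOP2A, the topoisomerase that untangles sister chromosomes, had an estimate of -0.07 ± 0.048.

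**Figure D2:**
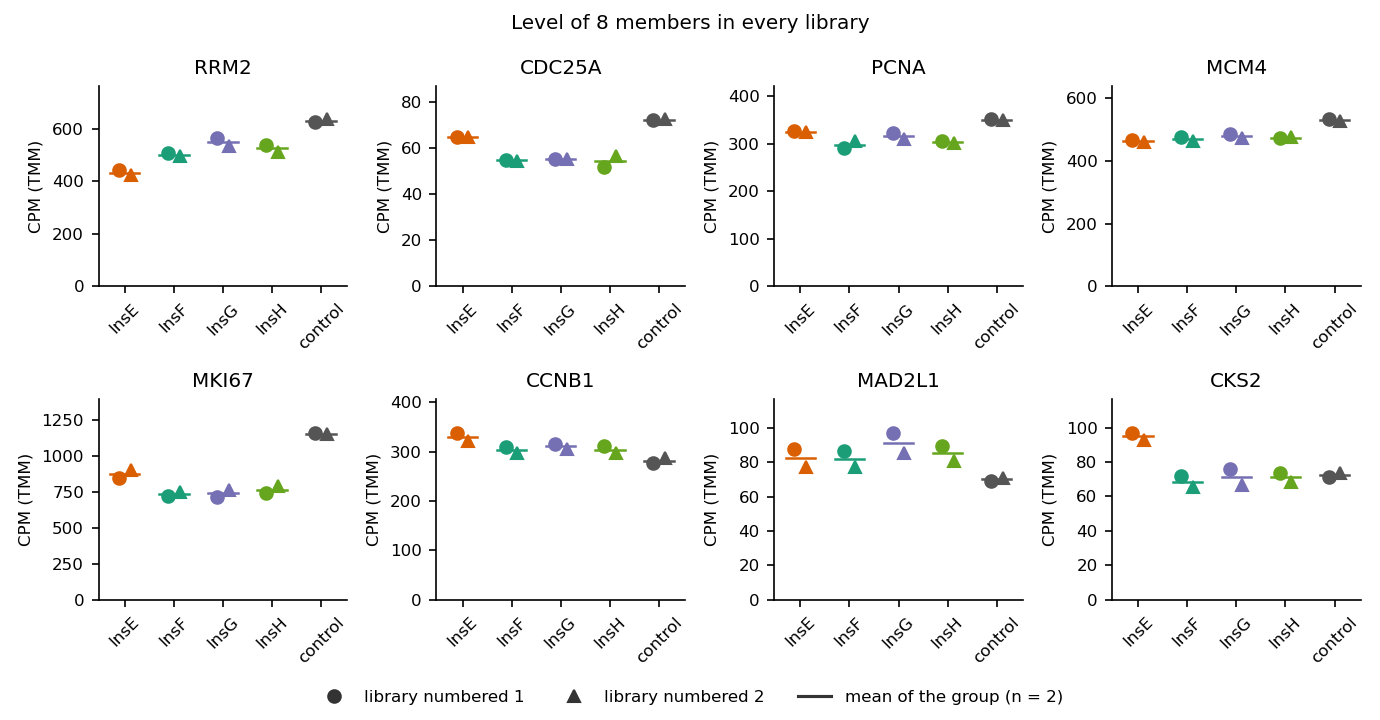
Level of 8 members in every library, in CPM, with the library numbered 1 as a circle, the library numbered 2 as a triangle and the group mean as a bar (n = 2). RRM2, CDC25A, PCNA, MCM4 and MKI67 lie below the control in all lines, CCNB1 and MAD2L1 lie above it, and CKS2 is high in InsE.

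The promoters of MKI67 (chr10:128126374-128126673, minus strand) and CDC25C (chr5:138331828-138332127, minus strand) are shown because they are the called G2/M genes with a CHR and the largest changes, one a fall and the other a rise. The windows shown hold CHR and CCAAT matches, in capitals. CDC25C has 4 windows, and the one shown, chosen for its CHR, lies inside the annotated gene. The 2 windows at the annotated gene start hold an E2F-type match and neither a CHR nor a CCAAT box. In MKI67 the second CHR shares a base with a reverse CCAAT match.
MKI67: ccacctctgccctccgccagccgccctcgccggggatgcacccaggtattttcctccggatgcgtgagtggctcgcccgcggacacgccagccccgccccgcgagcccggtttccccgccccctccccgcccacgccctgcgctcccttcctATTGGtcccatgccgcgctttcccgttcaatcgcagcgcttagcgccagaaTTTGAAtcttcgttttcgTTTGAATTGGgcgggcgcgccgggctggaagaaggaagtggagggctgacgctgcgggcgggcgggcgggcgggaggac
CDC25C: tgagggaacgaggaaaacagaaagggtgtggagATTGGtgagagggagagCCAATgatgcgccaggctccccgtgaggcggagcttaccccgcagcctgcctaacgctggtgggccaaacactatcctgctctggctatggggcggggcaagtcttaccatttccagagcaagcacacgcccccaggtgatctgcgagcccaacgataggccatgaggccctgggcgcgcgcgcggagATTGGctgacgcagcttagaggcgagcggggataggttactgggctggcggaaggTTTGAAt

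Summed over a class, the S-phase genes were lower in every line library than in either control library, on both scales, while the G2/M sum depended on the scale. The S-phase sum was 4402 and 4458 CPM in InsE, 4530 and 4611 CPM in InsF, 4549 and 4567 CPM in InsG and 4566 and 4644 CPM in InsH, against 4972 and 4976 CPM in the control. In TPM, which corrects for length, it was 2824 to 3134 in the lines against 3137 and 3175 in the control, so that the highest line library, InsG replicate 1, all but reached the control. The G2/M sum was 5325 to 5836 CPM in the lines against 5946 and 5937 CPM in the control, lower in all 8 libraries. In TPM it was 3392 to 3806 in the lines against 3411 and 3417 in the control, higher in 7 of 8. MKI67 alone made up 718 to 904 CPM of the G2/M sum in the lines, against 1162 and 1152 CPM in the control. Without MKI67, left out after its values were seen, the G2/M sum was 4989 and 4824 CPM in InsE, 4766 and 4572 CPM in InsF, 5036 and 4831 CPM in InsG and 4847 and 4661 CPM in InsH, against 4784 and 4784 CPM in the control, so that the lines lay on both sides of it. The G2/M sum divided by the S-phase sum in TPM was 1.29 and 1.27 for InsE, 1.18 and 1.14 for InsF, 1.21 and 1.19 for InsG and 1.19 and 1.15 for InsH, against 1.09 and 1.08 in the control. In CPM the ratio was 1.326 and 1.285 in InsE and 1.155 to 1.265 in the other lines, against 1.196 and 1.193 in the control, and InsF replicate 2 and InsH replicate 2 lay below the control. For 12 of the 49 members the mean change had opposite signs in CPM and TPM, among them MCM5, RRM1, TOP2A and CENPF, and of these CENPF alone was called in the mean of the lines.

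**Figure D3:**
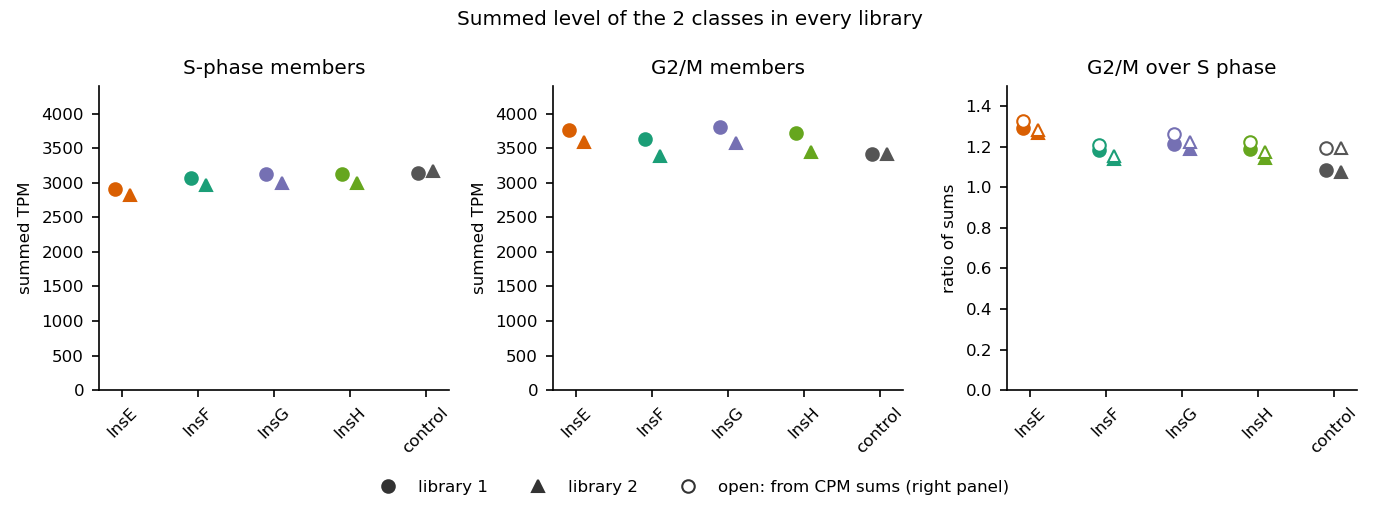
Summed level of the S-phase and G2/M members in every library, in TPM, and the ratio of the G2/M to the S-phase sum from TPM (filled) and from CPM (open), with libraries numbered 1 as circles and 2 as triangles. The TPM ratio is 1.14 to 1.29 in the lines and 1.09 and 1.08 in the control, and the CPM ratio overlaps the control.

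Counted by groups that do not overlap, 10 of the 21 S-phase genes had all 8 line libraries below both control libraries and 0 had all 8 above. Of the 28 G2/M genes, 4 lay wholly below and 5 wholly above the control. Of all 15554 genes, 14.7% lay wholly below and 13.3% wholly above.

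Taken line by line against the same 2 control libraries, the members called were 13 in InsE (8 S-phase genes lower, 4 G2/M genes higher, 1 lower), beside 23.2% of all genes (10.8% higher, 12.4% lower). In InsF 7 were called (5 S-phase and 2 G2/M genes, all lower), beside 22.3% of all genes (10.9% higher, 11.3% lower). In InsG 10 were called (6 S-phase genes lower, 3 G2/M genes higher, 1 lower), beside 20.3% (9.86% higher, 10.5% lower). In InsH 8 were called (7 S-phase genes and 1 G2/M gene, all lower), beside 18.4% (8.95% higher, 9.46% lower). With library sizes alone, InsE had 7 calls higher and 5 lower, InsF 1 higher and 5 lower, InsG 5 higher and 3 lower, and InsH 2 higher and 4 lower. These fits called 24.6%, 22.8%, 21.5% and 19.5% of all genes. MKI67 and RRM2 fell in each of the 4 lines, and CDC25A fell in InsF, InsG and InsH. The RRM2 call in InsG was lost without either control library, without either InsG library and with library sizes alone. In InsH the RRM2 call was lost without either control library. Limma on log2(TPM + 1) did not call RRM2 in InsF (adjusted p = 0.134), InsG (0.277) or InsH (0.222). Nor did it call CDC25A in InsF (0.148), InsG (0.345) or InsH (0.14). In each line fewer members were called when either control library was left out, and a smaller share of all genes was called as well. The same held in each line when either of its own libraries was left out. The lower counts are thus not particular to the members.

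In InsE, genes of nucleotide supply, DNA polymerases and the helicase fell, and a few mitotic genes rose. RRM2 fell by 0.55 ± 0.051 there (edgeR adjusted p = 9.63e-05). POLA1, the catalytic subunit of DNA polymerase alpha, had 97.1 and 93.7 CPM in InsE against 118 and 114 CPM in the control and fell by 0.28 ± 0.059 (0.00807). CCNE2, cyclin E2, had 52.4 and 46.7 CPM in InsE against 67.3 and 68.4 CPM in the control and fell by 0.44 ± 0.11 (0.0165). MCM2, MCM4, MCM5, MCM6 and POLE, the catalytic subunit of DNA polymerase epsilon, also fell, by 0.19 to 0.24. On the TPM scale several of these calls were lost. Limma on log2(TPM + 1) gave -0.28 for POLA1 (adjusted p = 0.0596), -0.25 for MCM6 (0.131), -0.17 for MCM4 (0.421) and -0.08 for POLE (0.469), and the sign of MCM5 turned (0.05, 0.588). Higher in InsE were CKS2, a small CDK-binding protein, CCNB1, and AURKB and BIRC5, which both belong to the chromosomal passenger complex. CKS2 had 96.9 and 92.8 CPM in InsE against 71.6 and 73.3 CPM in the control and rose by 0.39 ± 0.078 (0.00638). AURKB rose by 0.24 ± 0.061 (0.0191), BIRC5 by 0.24 ± 0.059 (0.0162) and CCNB1 by 0.23 ± 0.052 (0.0125). Of the 13 calls in InsE, those of RRM2 and MKI67 held with each library left out in turn. Limma did not call MKI67 in InsE, at -0.25 against -0.40 in edgeR (adjusted p = 0.243).

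InsF, InsG and InsH shared the falls of CDC25A and CCNE1. CDC25A fell by 0.40 in InsF, 0.39 in InsG and 0.42 in InsH, against an estimate of -0.15 in InsE that did not pass. CCNE1 fell by 0.26 in InsF and in InsH and by 0.21 in InsG, while its estimate of -0.04 in InsE did not pass. The CCNE1 calls were lost without either control library, and limma on log2(TPM + 1) called neither gene in InsF, InsG or InsH. In TPM, CDC25A in InsE (31.45 and 26.92) overlapped its range of 26.19 to 29.44 in those 3 lines. PCNA passed in InsF and InsH, falling by 0.23 and 0.20. In InsG, rises of CDK1 (0.40 ± 0.12, edgeR adjusted p = 0.0404), MAD2L1 (0.39 ± 0.092, 0.0173) and CDC25C (0.34 ± 0.10, 0.0429) were called. The estimates in the other lines, which did not pass, were 0.16 to 0.29 for CDK1, 0.23 to 0.28 for MAD2L1 and 0.28 to 0.32 for CDC25C. These 3 calls in InsG were lost without either control library and without InsG replicate 1, where CDK1 was at 0.26 (0.289), MAD2L1 at 0.28 (0.169) and CDC25C at 0.17 (0.444). CENPF was called in InsF (-0.28 ± 0.073, 0.0211).

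The lines were also compared with each other, in the fit of all 10 libraries, where the control adds to the estimate of the spread. Among the 4 lines, 4 members differed (RRM2, CDC25A, CKS2 and MKI67), beside 13.2% of all genes. In InsE against the mean of InsF, InsG and InsH, 10 members differed (7 higher, 3 lower), beside 24.2% of all genes (11.4% higher, 12.8% lower). Limma on log2(TPM + 1) called 2 higher and 5 lower, beside 16.3% of all genes. Same-numbered libraries of the lines deviated together, so both comparisons were also fitted in the 8 line libraries with the replicate number as a block. That fit called 42 members among the lines, beside 56.8% of all 15173 genes it tested, and 32 in InsE against the other lines (16 higher, 16 lower), beside 50.7%. The 4 and 10 members above were all among them. RRM2 was lower in InsE than in the other lines by -0.28 ± 0.042 (edgeR adjusted p = 0.00132), POLA1 by -0.20 ± 0.049 (0.0153) and CCNE2 by -0.31 ± 0.091 (0.0326). CDC25A and CCNE1 were higher in InsE, by 0.25 ± 0.050 (0.0064) and 0.21 ± 0.047 (0.011). Limma on log2(TPM + 1) called neither, with 0.07 for CDC25A (adjusted p = 0.591) and 0.11 for CCNE1 (0.126). The 5 G2/M genes called in this fit were higher in InsE, while the fit with the block called 12 higher and 6 lower. CKS2 differed most, with 96.9 and 92.8 CPM in InsE against 65.3 to 75.8 CPM in the other 3 lines, where it overlapped the control, a difference of 0.43 ± 0.063 (0.00118). MKI67 differed by 0.23, BIRC5 by 0.18, AURKB by 0.17 and TPX2, a spindle assembly factor, by 0.15. Without either InsE library the count was 3, and RRM2 and CKS2 passed with each of the 10 libraries left out in turn. Among the lines the count was 1 without InsE replicate 1, 1 without InsE replicate 2, and 2 without either library of InsF or of the control.

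Within the lines, the library numbered 2 had less RNA of many mitotic effectors than the library numbered 1, and more of their activators MYBL2 and FOXM1. With a term for the number in all groups, 16 members were called in libraries numbered 2 over those numbered 1, beside 21.8% of all genes (10.4% higher, 11.4% lower), 3 in the S-phase class (2 higher, 1 lower) and 13 in the G2/M class (4 higher, 9 lower). With the number apart in lines and control, 34 of the 49 members were called in the lines, beside 39.7% of all genes (19.6% higher, 20.1% lower). That fit had 1 control library of each number, so the spread of the control could not be measured and was taken from the lines. In the control 0 members were called, beside 0.129% of all genes, in an edgeR fit where 2 members had an unadjusted p under 0.05. The difference between lines and control in the effect of the number was called for 19 members (6 S-phase and 13 G2/M genes), beside 14.8% of all genes (7.67% higher, 7.09% lower). In the lines, 16 G2/M genes were lower and 6 higher in libraries numbered 2, and 4 S-phase genes were lower and 8 higher. The median over the G2/M genes was -0.08 and over the S-phase genes 0.03, beside a median of 0.0005 over all genes. The count of 16 was 4 to 6 without any 1 of the line libraries, 34 without control replicate 1 and 37 without control replicate 2. The share of all genes called in these fits with a library left out is not given here. The line libraries alone gave 34 members, beside 40.8% of all genes. Limma on log2(TPM + 1) called 0 members and 0 genes in all, with 25 members at an unadjusted p under 0.05. The depth was lower in the library numbered 2 of every group, but not to the same extent. From number 1 to number 2 it went from 30.8 to 20.1 M in the control. In the lines it went from 31 to 9.4 M in InsE, 28.8 to 14.8 M in InsF, 42.5 to 11.1 M in InsG and 22.9 to 12 M in InsH. The part of depth in the result was not tested.

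**Figure D4:**
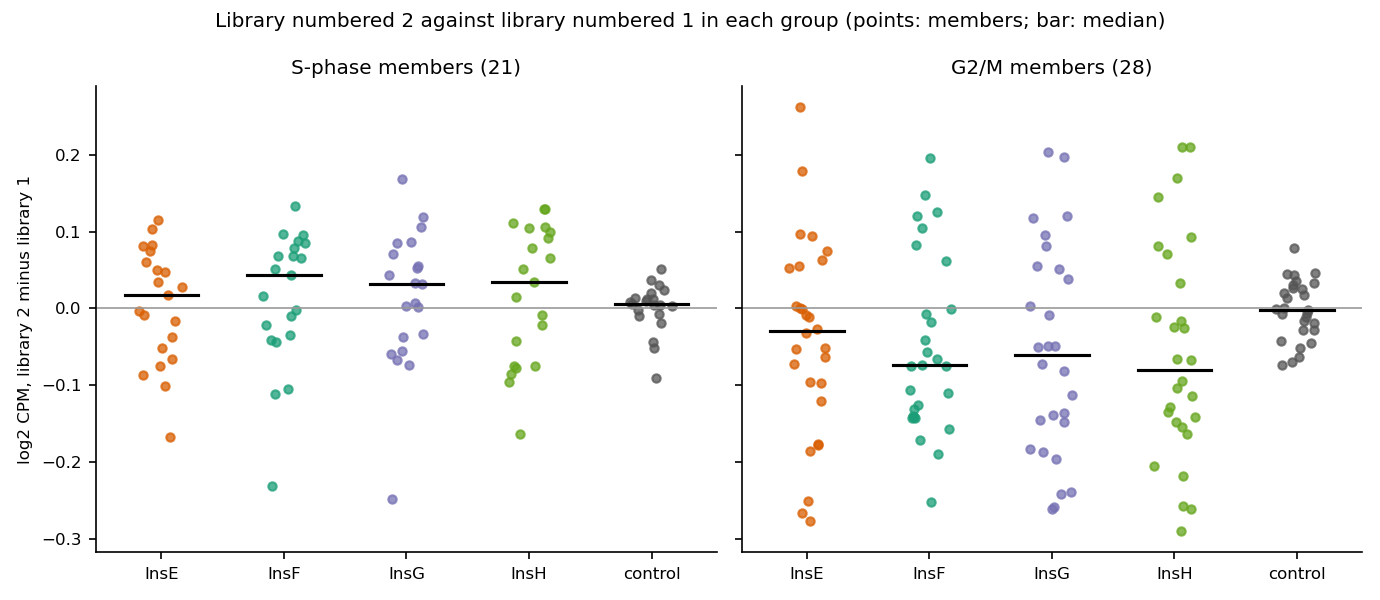
Difference in log2 CPM between the library numbered 2 and the library numbered 1 of each group, with a point per member and a bar at the class median. In the 4 lines the G2/M members spread from -0.29 to 0.26 with medians of -0.03 to -0.08, and in the control all members lie between -0.09 and 0.08.

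CDK1 had 248 CPM in the library numbered 2 and 298 in that numbered 1 of InsE, 233 and 265 CPM in InsF, 270 and 318 CPM in InsG and 235 and 282 CPM in InsH, against 222 and 225 in the control. CENPE, the kinetochore motor that carries chromosomes to the spindle equator, had 105 and 118 CPM in InsE, 94.9 and 113 CPM in InsF, 108 and 129 CPM in InsG and 93.7 and 115 CPM in InsH, again number 2 before number 1, against 111 and 112 in the control. MYBL2, the B-MYB activator of the G2/M genes, had 201 and 168 CPM in InsE, 198 and 179 CPM in InsF, 185 and 160 CPM in InsG and 200 and 173 CPM in InsH, against 205 and 206 in the control. CDK1 and CENPE were thus lower, and MYBL2 higher, in the library numbered 2 of each line, while the control libraries lay close together for each of these genes. In the lines CDK1 changed by -0.24 ± 0.017 (edgeR adjusted p = 1.52e-13), CENPE by -0.25 ± 0.024 (3.17e-10) and MYBL2 by 0.20 ± 0.020 (4.89e-10). These 3 were the members whose call in the fit of all groups held with each library left out in turn. What the replicate number stands for is not given in the labels. If the lines shared a single event, the p-values measure how evenly the lines repeated it, and not how such events vary.

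Among the other mitotic effectors, TTK, the kinase that starts the spindle checkpoint, changed by -0.21 in libraries numbered 2 of the lines, CCNA2, cyclin A2, by -0.21, MAD2L1 by -0.17, HMMR by -0.14, KIF11, the motor that separates spindle poles, by -0.13, CENPF by -0.13 and TOP2A by -0.10. The higher G2/M genes were FOXM1, the partner activator of MYBL2 (0.17), CDC20 (0.12), PLK1 (0.10), UBE2C (0.10) and MKI67 (0.08) beside MYBL2. Of the S-phase class, CCNE2 changed by -0.21, E2F1 by 0.10, MCM7 by 0.09 and MCM3 by 0.08. RRM2 changed by -0.06 ± 0.010, small beside its difference from the control. Library 2 lay below library 1 in each of the 4 lines for 18 G2/M and 4 S-phase genes, beside 25.1% of all genes, and above it for 6 G2/M and 9 S-phase genes, beside 23.9% of all genes.

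Within each number the lines and the control could be compared with 1 control library. The median S-phase change over control was -0.11 in libraries numbered 2 and -0.15 in those numbered 1. The median G2/M change was -0.01 in libraries numbered 2 and 0.06 in those numbered 1. MKI67 changed by -0.52 in libraries numbered 2 and by -0.62 in those numbered 1, RRM2 by -0.38 and -0.30, and CDC25A by -0.33 and -0.35. CDK1 changed by 0.15 in libraries numbered 2 and by 0.37 in those numbered 1, and TTK by -0.01 and 0.22. CCNA2 had opposite signs, with -0.11 in libraries numbered 2 and 0.13 in those numbered 1, as did CENPE with -0.15 and 0.08.

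The wider machinery was described from further lists, whose counts in the mean of the lines stand beside 27.6% of all genes called (13.1% higher, 14.5% lower). Of 40 other replication genes, 14 were called in the mean of the lines, 6 higher and 8 lower. Their median log2 change was 0.02, beside -0.13 over the S-phase members, so the mostly lower values of the members did not extend to this list. UHRF1, which couples DNA methylation to replication, fell by 0.37 ± 0.048 (edgeR adjusted p = 0.000457), the origin subunit ORC1 by 0.35 ± 0.080 (0.00951), while RPA3, a subunit of the single-strand binding protein, rose by 0.36 ± 0.091 (0.0165). Of 40 other mitotic genes, 8 were called, 5 higher and 3 lower. The kinase NEK2 rose by 0.36 ± 0.092 (0.0176), the spindle motor KIF14 by 0.31 ± 0.070 (0.00937) and the kinetochore subunit NUF2 by 0.29 ± 0.075 (0.0186). All 3 lie on chromosome 1, as do CENPF, which fell in CPM, and ORC1, which fell. Of 18 RB, DREAM and E2F regulators, 5 were called, 3 higher and 2 lower. The S-phase activator E2F2 fell by 0.44 ± 0.070 (0.00158) and the repressor E2F8 by 0.45 ± 0.065 (0.000945), and TFDP1, the dimer partner of E2F proteins, rose by 0.37 ± 0.039 (0.000142). Of 19 genes of the APC/C and SCF ubiquitin ligases, 5 were called, 2 higher and 3 lower, with CDC16 up by 0.48 ± 0.054 (0.00019) and the inhibitor FBXO5 (EMI1) lower by -0.32 ± 0.069 (0.00717). CDC16 and TFDP1 both lie on chromosome 13, and no share over all genes of a chromosome is given here. Of 13 checkpoint kinases and their partners, 5 were called, 2 higher and 3 lower, with ATM at -0.55 ± 0.085 (0.00139) and ATRIP at -0.26 ± 0.078 (0.0332). In libraries numbered 2 of the lines the other mitotic genes were called in 27 of 40 cases, 6 higher and 21 lower, and the other replication genes in 29 of 40, 10 higher and 19 lower, beside 39.7% of all genes (19.6% higher, 20.1% lower).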

How the data were processed

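RNA of 10 GIST-T1 libraries, 5 groups of 2, was sequenced. The authors deposited expected counts and TPM from RSEM for each library. The submitters' processing notes name STAR 2.5.3, RSEM 1.3.2, DESeq2 1.38.3 and build hg38; no source used here gives the annotation release or strand setting. TPM is a share per transcript length and keeps no depth. The deposited effective length, an average over transcripts, was used as it stands.

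Expected counts, of which 10.2% to 12.8% per library were not whole, were rounded and tested with edgeR 4.0.16 in R 4.3.3 (robust quasi-likelihood test, TMM, minimum count 10). All 10 libraries were fitted together. Two-sided p-values were adjusted by Benjamini and Hochberg's method across the 15554 genes, and a gene under 0.05 is called. Group fits had 5 residual degrees of freedom and the fit with replicate number 4. The fit with the number apart in lines and control had 3, all from the lines, and was added after seeing the data. Deviations from the group means of same-numbered libraries correlated at 0.762 to 0.808 between the lines (8328 genes), so the number was taken from the data, not the labels, as pairing the lines. Fold changes are log2, the group named first over the other. Scripts were tested on simulated data.

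All members are named with their calls. Values per library are given, by role, for the called members that changed most (at most 3) or, with none called, for the member highest in TPM, and at most 3 called genes are named from each further list. The members and lists were chosen with earlier results of these data known. Alternatives used DESeq2 1.42.0, limma 3.58.1 on log2(TPM + 1), other scalings, no filter and left-out libraries. A series-wide table with 10 value columns was not used, since those columns could not be matched to labelled samples. Positions came from GENCODE release 29 and promoter windows from RefSeq. With the strand setting unknown, reads of overlapping genes cannot be told apart. Genes with processed pseudogenes, such as RRM2 and PCNA, are uncertain to the extent that RSEM divided their reads.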

Additional observations from a re-analysis of the deposited data

Results flagged for a closer look

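For 10 members the change in InsE differed from that in the other 3 lines by a test of the difference itself (log2 of InsE over the mean of InsF, InsG and InsH, edgeR adjusted p under 0.05). The values were -0.28 for RRM2, -0.20 for POLA1, -0.31 for CCNE2, 0.25 for CDC25A, 0.21 for CCNE1, 0.43 for CKS2, 0.17 for AURKB, 0.18 for BIRC5, 0.15 for TPX2 and 0.23 for MKI67.

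For 19 members the difference between the libraries numbered 2 and 1 was not the same in the lines as in the control, again by a test of the difference itself (log2 of number 2 over number 1, lines minus control). Among the S-phase genes it was 0.10 for MCM3, 0.13 for MCM5, -0.13 for MCM6, 0.082 for MCM7, -0.082 for RRM2 and -0.23 for CCNE2. Among the G2/M genes it was -0.23 for CCNA2, -0.11 for CCNB1, -0.22 for CDK1, 0.15 for FOXM1, 0.21 for MYBL2, -0.23 for TTK, -0.21 for MAD2L1, -0.24 for CENPE, -0.16 for CENPF, -0.18 for KIF11, -0.14 for HMMR, 0.0945 for MKI67 and -0.10 for TOP2A. The control had 1 library of each number, so this test took its spread from the lines and holds no replicate of the control's difference. Groups of 2 libraries were too small for a test of single outlying libraries.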

How the results depend on the processing

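The counts of called members were within 1.5 times the main count under DESeq2, under DESeq2 size factors in edgeR and under library sizes alone, in all 8 comparisons. Without a filter on low counts the exception was the test among the lines, with 8 members. The genes called changed more than the counts. Library sizes alone kept 9 of the 13 main calls in InsE, 5 of 7 in InsF, 6 of 10 in InsG, 4 of 8 in InsH and 9 of 14 in the mean. In the comparisons among the lines, of InsE against the other lines and by number, library sizes alone kept all main calls. Limma on log2(TPM + 1) called 7 members in InsE, 1 in InsF, 2 in InsG, 1 in InsH, 6 in the mean of the lines, 0 among the lines and 0 by replicate number (unadjusted p under 0.05 for 7 and 25 of the last 2). Of all genes it called, in the same order, 11.3%, 10.2%, 8.06%, 8.41%, 13.8%, 5.99% and 0%. On that scale MCM5 in InsE (0.0546) and CENPF in the mean of the lines (0.0382) had the opposite sign. With both control libraries summed into 1, chosen after seeing the data, the counts were 2 in InsE, 3 in InsF, 2 in InsG, 2 in InsH, 3 in the mean and 2 among the lines. With 1 library left out at a time, where a lone library is assumed to vary like the other groups, they ranged from 2 to 14 in InsE, 3 to 7 in InsF, 2 to 8 in InsG, 2 to 9 in InsH, 3 to 16 in the mean, 1 to 4 among the lines, 3 to 10 in InsE against the other lines and 4 to 37 by number. Except by number, where that share is not given here, each fit with a library left out called a smaller share of all genes than the main fit. The same held with the control libraries summed. These lower counts are thus not particular to the members. By number in the 8 line libraries only, 34 members were called, beside 40.8% of all genes.

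With the replicate number as a block in all groups, 27 members were called in InsE (beside 38.2% of all genes), 17 in InsF (37.8%), 26 in InsG (37.1%), 17 in InsH (34.2%), 28 in the mean (42.9%), 26 among the lines (35%) and 22 in InsE against the other lines (38.2%). Same-numbered libraries of a line and the control did not deviate together (correlations of 0.028 to 0.053), so against the control the number was not taken as a pairing. With the block in the 8 line libraries only, chosen after seeing the data, 42 members were called among the lines and 32 in InsE against the other lines. The libraries numbered 2 were the shallower in every group, so their counts carry the larger counting error. The causes of these shifts were not tested.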
